A study of Caenorhabditis elegans with 8 samples.

Results

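The dod genes (downstream of DAF-16) are named for their place below the FOXO transcription factor DAF-16 in Caenorhabditis elegans. The 8 examined here, dod-3, dod-6, dod-17, dod-19, dod-21, dod-22, dod-23 and dod-24, were chosen by name, by looking up their gene identifiers in the WBcel235 annotation, out of 46904 genes in the files. That annotation holds 2 further genes with the same name stem, dod-18 and dod-20, which were not chosen. RNA was sequenced from whole day 1 adults kept at 20 °C, in 4 genotypes with 2 libraries each, described as independent biological repeats. The genotypes were the wild type (strain N2), daf-2(e1370) (strain CF1041), hel-1(gk148684) (strain IJ501) and hel-1(gk148684); daf-2(e1370) (strain IJ1121). Each genotype is 1 strain, so a difference between genotypes cannot be told apart from a difference between strains. The study asked how loss of HEL-1, a DEAD-box RNA helicase, alters gene expression with and without the daf-2 mutation.

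DAF-2 is the worm's insulin and IGF-1 receptor. When its signaling is low, DAF-16 is no longer held in the cytoplasm by phosphorylation, enters the nucleus and changes transcription, and daf-2 mutants live long and resist stress and infection. The intestine is a major site of DAF-16 action. The dod genes were named in a microarray screen of worms with reduced daf-2 or daf-16, and fall in a pair of classes: dod-3 and dod-6 were in the class that was higher with daf-2 reduced, and the other 6 were in the class that was lower. In the higher class DAF-16 is known to act at many promoters directly, whereas the lower class is known for promoters bound by the transcription factor PQM-1. Of the lower class, dod-17, dod-21, dod-22 and dod-24 encode proteins with a CUB-like domain, a family with many members that respond to bacterial infection.

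The genes lie on 4 chromosomes of the WBcel235 build, and all encode proteins. On chromosome V lie dod-3 (bases 2730622 to 2731098, minus strand, 2 exons) and dod-19 (411782 to 414759, minus strand, 6 exons). On chromosome III lies dod-6 (10197716 to 10198352, plus strand, 2 exons), and on chromosome II lies dod-23 (8398161 to 8399164, minus strand, 3 exons). The 4 genes of the CUB-like family share a stretch of chromosome IV: dod-21 (12936738 to 12937988, plus strand, 3 exons), dod-24 (12940106 to 12941354, minus strand, 3 exons), dod-22 (12965374 to 12967392, plus strand, 8 exons) and dod-17 (12976303 to 12978343, plus strand, 8 exons). No dod gene examined here shares exon bases with another annotated gene. Promoter, transcript and protein sequences were not analysed here.

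The smallest library held 31555368 counts and the largest 37552513. Levels are given as CPM, counts divided by library size after TMM, a scaling that corrects for differences in composition between libraries, and group values as mean ± SD of 2 libraries. Differences are log2 fold changes ± SE from the quasi-likelihood test of edgeR, with p-values adjusted over 13722 tested genes by the Benjamini-Hochberg method and a threshold of 0.05. "Rose" and "fell" are used of genes past that threshold. Of the 8 dod genes, 7 passed the filter on low counts and were tested, and dod-21 did not pass. The transcript of daf-16 had 145 to 168 CPM across the 8 libraries, that of hel-1 468 to 618 CPM, and that of daf-2 107 to 118 CPM in the 4 libraries with the normal daf-2 gene and 132 to 145 CPM in the 4 with daf-2(e1370). The labels do not say what each allele changes in the transcript, so these levels do not check the genotypes. In whole worms, fewer cells of a type and less RNA per cell cannot be told apart.

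One daf-2 library stood apart. In daf-2 replicate 2 the summed level of 5 pharynx markers was 165 CPM, against 52.9 CPM in daf-2 replicate 1 and 52.1 to 56.5 CPM in the other 6 libraries. The summed level of 6 body wall muscle markers was 2461 CPM against 980 CPM in replicate 1, and that of 6 hypodermis markers was 1473 CPM against 774 CPM. The summed level of 8 oocyte and germline markers was lower, 6531 CPM against 8445 CPM. For 10 intestine markers the sums were 3191 and 2840 CPM in the daf-2 replicates, 3909 and 4075 CPM in wild type, 3261 and 4647 CPM in hel-1 and 2980 and 3183 CPM in hel-1;daf-2. None of the 50 markers in 7 cell types was at 0 counts in any genotype. Between replicates, log2 levels differed with an SD of 0.446 over genes in daf-2 and of 0.183 to 0.258 in the other genotypes. What part these shifts have in the dod levels was not tested. For the dod genes, calls that changed when a library was left out are given beside the result. The same was done for neighbouring genes and for some list counts or medians in comparisons with or within daf-2 genotypes. It was not done for single genes of the lists or for the similarity of genes across libraries.

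Per kilobase of exon, which allows genes to be compared, the order of the dod genes turned over between wild type and daf-2. In wild type the mean levels per kilobase were 125 CPM for dod-23, 28.9 CPM for dod-24, 15.998 CPM for dod-19, 4.45 CPM for dod-3, 3.81 CPM for dod-17, 2.86 CPM for dod-6 and 0.654 CPM for dod-22. The 3 genes dod-3, dod-17 and dod-6 lay close together there, and their libraries interleave in part. In daf-2 the levels per kilobase were 213 CPM for dod-6, 130 CPM for dod-3, 29.1 CPM for dod-23, 21.2 CPM for dod-19, 7.07 CPM for dod-24, 3.47 CPM for dod-17 and 0.0873 CPM for dod-22. The libraries of dod-6 and dod-3 overlapped in this order, as did those of dod-23 and dod-19 and those of dod-24 and dod-17. The genes that led in daf-2 were thus among the lower ones in wild type. In hel-1 dod-23 again led, with 104 CPM per kilobase, and in hel-1;daf-2 dod-6 led, with 68.5 CPM per kilobase.

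**Figure D1:**
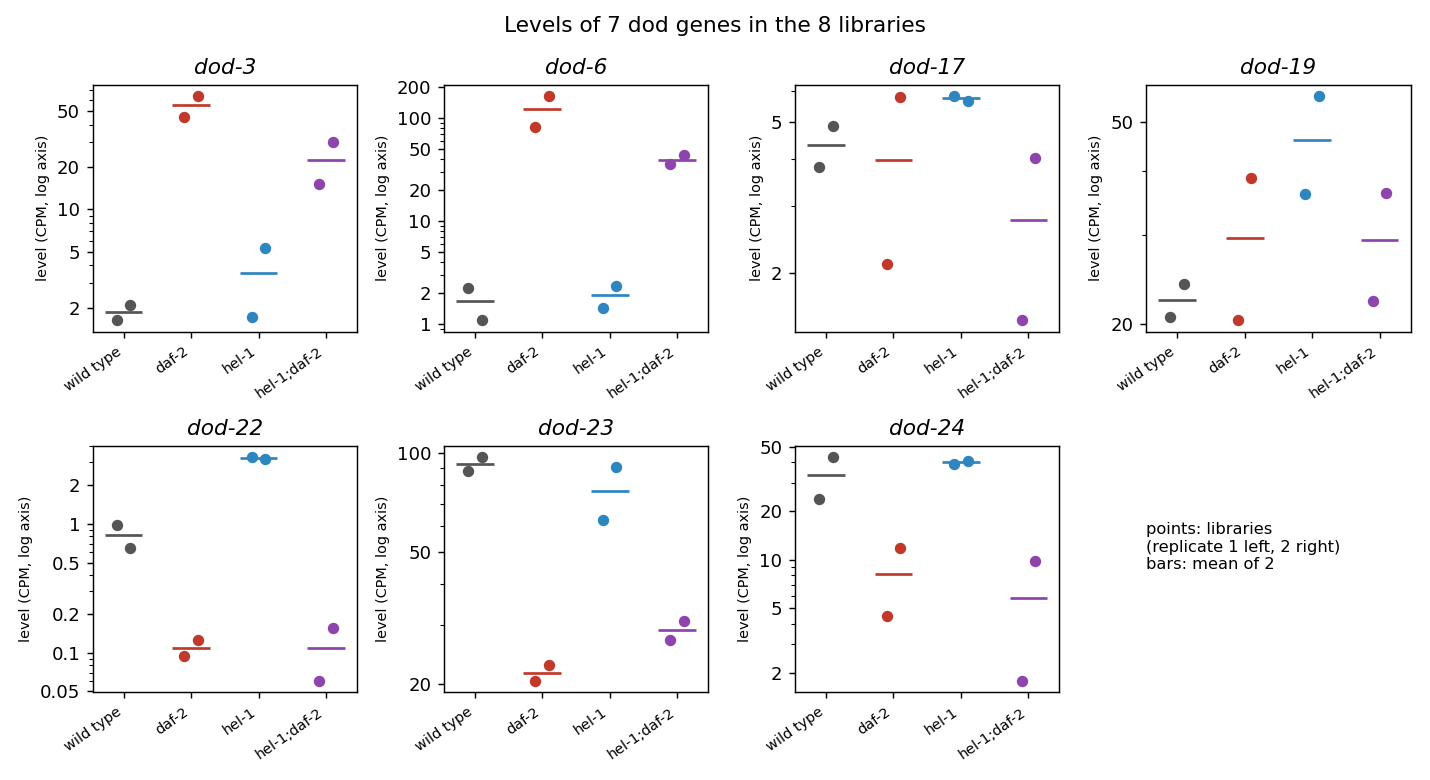
Levels of the 7 tested dod genes in CPM (y axis, log scale, a range of its own in each panel) by genotype (x axis). Points are single libraries, replicate 1 left and replicate 2 right, and bars are means of 2 libraries. In the panels of dod-3 and dod-6 all 4 libraries with daf-2(e1370) lie above the 4 without it, and in those of dod-22, dod-23 and dod-24 all 4 lie below.

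In daf-2 mutants 2 dod genes rose and 2 fell against wild type. The pair that rose, dod-3 and dod-6, is the pair in the higher class of the original screen, and the pair that fell, dod-22 and dod-23, is in its lower class. The other 3 tested genes, dod-17, dod-19 and dod-24, did not pass the test. Of all tested genes, 12.1% rose and 7.21% fell in this comparison, 1658 and 990 genes, or 2304 and 553 with scaling to library totals only. That scaling moved the median log2 fold change of all tested genes from 0.10 to 0.27, and moved dod-17 from -0.12 to 0.078 with no call either way.

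dod-6 had the largest difference of the dod genes. Its level was 2.24 and 1.09 CPM in the wild-type libraries and 83.1 and 165 CPM in the daf-2 libraries. Every daf-2 library lay far above every wild-type library, although the replicates of each genotype differed by about the same factor. The mean rose from 1.66 ± 0.814 to 124 ± 57.6 CPM, a ratio of 74.5, and the log2 fold change was 6.21 ± 0.45 (edgeR adjusted p = 0.00043). With each of the 8 libraries left out in turn it stayed past the threshold in 8 of 8 fits, between 5.65 and 6.81.

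dod-3 was at 1.63 and 2.11 CPM in wild type and at 45.7 and 63.8 CPM in daf-2. The wild-type libraries were low and close together, and both daf-2 libraries were high. Its log2 fold change was 4.87 ± 0.55 (edgeR adjusted p = 0.00225), a ratio of mean CPM of 29.3, and it passed in 8 of 8 fits with a library left out (4.63 to 5.06).

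dod-23, which led per kilobase in wild type, was at 88.5 and 97.4 CPM there and stood at 20.3 and 22.7 CPM in daf-2. Replicates lay close together in both genotypes and the groups did not overlap. It fell to 23.2% of the wild-type mean, with a log2 fold change of -2.11 ± 0.17 (edgeR adjusted p = 0.000623), the smallest SE of the dod genes. Every fit with a library left out gave a value between -2.19 and -2.05, past the threshold in 8 of 8.

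dod-22, of the CUB-like family, was scarce in both genotypes. It had 34 and 21 counts in the wild-type libraries (0.988 and 0.652 CPM) and 3 and 5 counts in the daf-2 libraries (0.0946 and 0.125 CPM). It passed the filter through the wild-type and hel-1 libraries, so a lower level in daf-2 was the direction left for it to show. The mean in daf-2 was 13.4% of wild type, and the exact 95% Poisson interval from its 8 counts, which covers counting error only, ran from 0.0481 to 0.219 CPM. Its log2 fold change was -2.85 ± 0.47 (edgeR adjusted p = 0.0105). The call was lost without wild-type replicate 1 (-2.53, edgeR adjusted p = 0.0628) and in a fit of the compared genotypes alone (edgeR adjusted p = 0.0689).

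dod-24, another CUB-like gene, stood at 23.7 and 43.3 CPM in wild type and 4.48 and 11.9 CPM in daf-2. All wild-type libraries lay above all daf-2 libraries, but replicates differed by a factor of 1.83 in wild type and 2.66 in daf-2. Its log2 fold change was -2.02 ± 0.67 and did not pass (edgeR adjusted p = 0.0681), but it passed in 4 of 14 alternative fits, described below. The value was -2.88 without daf-2 replicate 2 and -1.52 without daf-2 replicate 1, neither past the threshold. It passed without either hel-1;daf-2 library (edgeR adjusted p = 0.0404 without replicate 1 and 0.0407 without replicate 2).

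The remaining pair overlapped between the genotypes. dod-17, of the CUB-like family, was at 3.81 and 4.87 CPM in wild type and at 2.11 and 5.81 CPM in daf-2, which enclosed the wild-type values (log2 fold change -0.12 ± 0.52, edgeR adjusted p = 0.876). dod-19 was at 20.7 and 23.97 CPM in wild type and at 20.3 and 38.8 CPM in daf-2 (0.41 ± 0.35, edgeR adjusted p = 0.40). Both are in the lower class of the original screen, and neither was lower beyond the spread of replicates here. Without daf-2 replicate 2 dod-17 stood at -1.02 and dod-19 at -0.12, and neither passed.

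The groups did not overlap in 5 of the 7 tested genes, against 64.5% of all tested genes. dod-21 could not be tested: it had 3 and 1 counts in wild type, 0 and 2 in daf-2, 7 and 2 in hel-1 and 0 and 0 in hel-1;daf-2, 15 in all. At this depth a floor of 3 counts corresponds to 0.0946 CPM in daf-2 replicate 1, so little can be said of dod-21. The exact 95% Poisson intervals, which cover counting error only, ran from 0.059 to 0.245 CPM for its 9 counts in hel-1 and from 0 to 0.0566 CPM for its 0 counts in hel-1;daf-2. With no filter beyond 1 count dod-21 was tested and did not pass in any comparison (edgeR adjusted p of 0.192 to 0.791).

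The hel-1;daf-2 and hel-1 libraries give the daf-2 difference a second time, in libraries that the daf-2 and wild-type comparison did not use, although both comparisons draw on 1 shared estimate of the spread. Again dod-3 and dod-6 rose and dod-22 and dod-23 fell. For dod-22, which passed the filter through the wild-type and hel-1 libraries, a fall was the direction left to show here too, so its call adds little. Here 2.96% of all tested genes rose and 2.65% fell, 406 and 364 genes, or 557 and 327 with scaling to library totals only.

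dod-6 had 1.43 and 2.37 CPM in hel-1 and 35.8 and 43.8 CPM in hel-1;daf-2. The groups lay far apart, and the log2 fold change was 4.40 ± 0.43 (edgeR adjusted p = 0.00184), a ratio of 20.9. It passed in 8 of 8 fits with a library left out (4.07 to 4.79). dod-3 had 1.72 and 5.30 CPM in hel-1, an unequal pair, and 15.1 and 30.2 CPM in hel-1;daf-2. Its log2 fold change was 2.71 ± 0.50 (edgeR adjusted p = 0.0236), a ratio of 6.44. This call rested on single libraries: it was lost without hel-1 replicate 1 (2.09, edgeR adjusted p = 0.0769) and without hel-1;daf-2 replicate 2 (2.12, edgeR adjusted p = 0.155).

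dod-22 had its highest level in hel-1, with 125 and 103 counts (3.31 and 3.21 CPM), and 2 and 5 counts in hel-1;daf-2 (0.0601 and 0.157 CPM). Replicates agreed closely in hel-1, and the double mutant was near the floor of 3 counts. Its log2 fold change was -4.87 ± 0.47 (edgeR adjusted p = 0.0018). It passed in 8 of 8 fits with a library left out, at -5.68 without hel-1;daf-2 replicate 2 and at -4.35 without replicate 1. dod-23 fell from 62.5 and 90.9 CPM in hel-1 to 27.1 and 30.9 CPM in hel-1;daf-2 (-1.40 ± 0.17, edgeR adjusted p = 0.0043), and passed in 8 of 8 such fits.

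dod-24 was at 39.1 and 40.8 CPM in hel-1 and at 1.77 and 9.88 CPM in hel-1;daf-2. The groups were far apart, but the replicates of the double mutant differed 5.57-fold. The log2 fold change was -2.78 ± 0.70 and did not pass (edgeR adjusted p = 0.0619). It passed in 8 of 14 alternative fits. Of those with a library left out, it passed without hel-1;daf-2 replicate 2 (-4.49), daf-2 replicate 1 or daf-2 replicate 2. DESeq2 passed it too and called 5 dod genes, where 6.07% of all tested genes passed. It passed as well with DESeq2 size factors, no filter, the replicate block or the compared genotypes alone.

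dod-17 was at 5.83 and 5.67 CPM in hel-1 and at 1.503 and 4.01 CPM in hel-1;daf-2. All double mutant values were lower, with a log2 fold change of -1.06 ± 0.53 (edgeR adjusted p = 0.279). dod-19 was at 36.1 and 56.3 CPM in hel-1 and at 22.2 and 36.3 CPM in hel-1;daf-2, values that overlap by a narrow margin (-0.66 ± 0.34, edgeR adjusted p = 0.295). The groups did not overlap in 6 of the 7 tested genes, against 66.9% of all tested genes.

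Against wild type, whose libraries also serve the daf-2 comparison, hel-1;daf-2 gave calls for those 4 genes, 2 that rose and 2 that fell, with the same limit for dod-22, where 3.1% of all tested genes rose and 1.17% fell. The log2 fold changes were 4.57 ± 0.44 for dod-6 (edgeR adjusted p = 0.00205), 3.60 ± 0.54 for dod-3 (edgeR adjusted p = 0.0114), -1.68 ± 0.17 for dod-23 (edgeR adjusted p = 0.00252) and -2.89 ± 0.48 for dod-22 (edgeR adjusted p = 0.0176). dod-24 stood at -2.53 ± 0.70 and did not pass (edgeR adjusted p = 0.0905), but passed in 5 of 14 alternative fits. With a library left out it passed in 3 of 8 fits, those without daf-2 replicate 1, daf-2 replicate 2 or hel-1;daf-2 replicate 2 (-4.24). The groups did not overlap in 5 of 7 genes, against 62.4% of all tested genes. The calls of dod-6 and dod-23 held in 8 of 8 fits with a library left out. That of dod-3 was lost without wild-type replicate 1 (3.41, edgeR adjusted p = 0.105) or 2 (3.79, edgeR adjusted p = 0.0833) or hel-1;daf-2 replicate 2 (3.01, edgeR adjusted p = 0.0613). That of dod-22 was lost without wild-type replicate 1 (-2.56, edgeR adjusted p = 0.119) or 2 (-3.15, edgeR adjusted p = 0.0584) or hel-1;daf-2 replicate 1 (-2.36, edgeR adjusted p = 0.127) or 2 (-3.69, edgeR adjusted p = 0.0623).

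**Figure D2:**
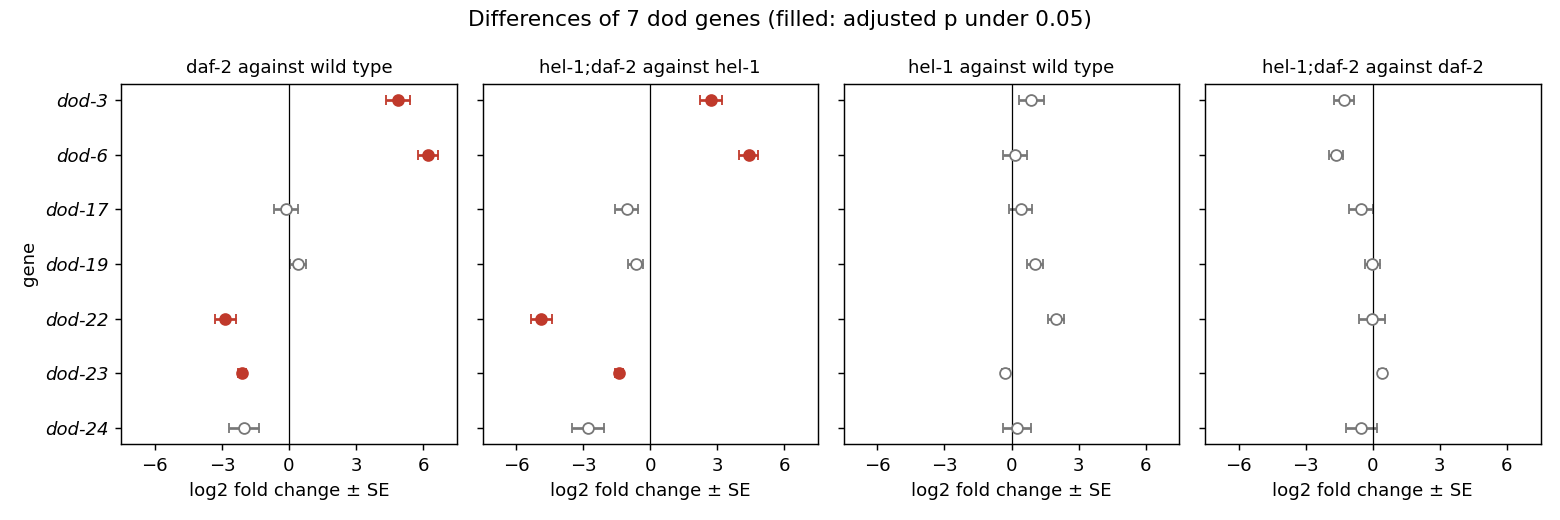
Log2 fold changes (x axis) of the 7 tested dod genes (y axis) in 4 comparisons, with bars of 1 SE. Filled points passed an adjusted p of 0.05 with edgeR. The left 2 panels show the daf-2 mutation with and without normal hel-1 and hold filled points for dod-3, dod-6, dod-22 and dod-23, and the right 2 panels show the hel-1 mutation and hold none.

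The hel-1 mutation alone gave no dod gene past the threshold with edgeR. At an unadjusted p under 0.05 there were 2, dod-19 and dod-22, and DESeq2 called 1, dod-22. Few genes of any kind passed with edgeR: 0.415% of all tested genes with adjustment and 12.2% at an unadjusted p under 0.05. With DESeq2 2.12% passed. dod-22 was higher in both hel-1 libraries (3.31 and 3.21 CPM) than in both wild-type libraries (0.988 and 0.652 CPM). Its log2 fold change was 1.98 ± 0.37 (edgeR adjusted p = 0.0794). DESeq2 gave 1.96 (DESeq2 adjusted p = 0.0487). With edgeR dod-22 passed without daf-2 replicate 1 or replicate 2, libraries of a genotype outside this comparison. Leaving them out changed the filter, the scaling and the adjustment as well as the spread. dod-19 was at 36.1 and 56.3 CPM against 20.7 and 23.97 CPM in wild type, with no overlap (1.05 ± 0.35, edgeR adjusted p = 0.304).

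The other 5 genes did not reach an unadjusted p under 0.05. dod-17 was higher in both hel-1 libraries (5.83 and 5.67 CPM) than in both wild-type libraries (3.81 and 4.87 CPM). dod-3 had 1 hel-1 library at 1.72 CPM, within the wild-type range, and 1 at 5.30 CPM, above it (0.89 ± 0.57, edgeR adjusted p = 0.522). dod-6 stood at 0.16 ± 0.55 (edgeR adjusted p = 0.899), dod-17 at 0.41 ± 0.52 (edgeR adjusted p = 0.714), dod-23 at -0.28 ± 0.16 (edgeR adjusted p = 0.496) and dod-24 at 0.26 ± 0.63 (edgeR adjusted p = 0.853). The groups did not overlap in 3 of 7 genes, against 59.2% of all tested genes. The summed intestine markers differed between the hel-1 libraries, at 3261 and 4647 CPM, and 5 of the 7 tested dod genes, dod-3, dod-6, dod-19, dod-23 and dod-24, were higher in the second of these libraries. The part of these markers in the dod levels was not tested.

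The effect of the hel-1 mutation in daf-2 mutants is the comparison of hel-1;daf-2 with daf-2, which shares the daf-2 libraries with the daf-2 and wild-type comparison. No dod gene passed with edgeR or DESeq2, and 3 (dod-3, dod-6 and dod-23) had an unadjusted p under 0.05. Of all tested genes 0.051% passed with adjustment and 16.8% at an unadjusted p under 0.05. The groups did not overlap for the same 3 genes, with dod-3 and dod-6 lower and dod-23 higher in hel-1;daf-2, against 53.3% of all tested genes.

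dod-6 had 83.1 and 165 CPM in daf-2 and 35.8 and 43.8 CPM in hel-1;daf-2, a mean of 32.1% of the daf-2 mean. The daf-2 replicates differed more from each other than replicate 1 did from the double mutant on the CPM scale. The log2 fold change was -1.64 ± 0.33 (edgeR adjusted p = 0.204). dod-3 had 45.7 and 63.8 CPM in daf-2 and 15.1 and 30.2 CPM in hel-1;daf-2, 41.3% of the daf-2 mean (-1.28 ± 0.44, edgeR adjusted p = 0.267). dod-23 had 20.3 and 22.7 CPM in daf-2 and 27.1 and 30.9 CPM in hel-1;daf-2, 135% of the daf-2 mean (0.43 ± 0.17, edgeR adjusted p = 0.288).

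The calls of this pair depended on the daf-2 libraries, and the size of the dod-3 value on those of the double mutant too. Without daf-2 replicate 1 both dod-6 (-2.02, edgeR adjusted p = 0.00271) and dod-3 (-1.46, edgeR adjusted p = 0.0481) passed, in a fit where daf-2 was represented by replicate 2 alone, the library with the high muscle and pharynx markers, and where 39.9% of all tested genes passed (3050 rose and 2762 fell). Without daf-2 replicate 2 neither passed (-1.05 for dod-6 and -1.01 for dod-3) and 6 genes passed in all, 1 that rose and 5 that fell. The dod-3 value was -0.85 without hel-1;daf-2 replicate 1 and -1.85 without replicate 2, neither past the threshold. With no filter beyond 1 count, both genes passed (edgeR adjusted p = 0.0164 for dod-3 and 0.000101 for dod-6), in a fit where 28 genes rose and 582 fell, 3.05% of those tested. The other 4 tested genes did not differ beyond the spread: dod-17 at -0.53 ± 0.53 (edgeR adjusted p = 0.522), dod-19 at -0.02 ± 0.35 (edgeR adjusted p = 0.973), dod-22 at -0.04 ± 0.60 (edgeR adjusted p = 0.969) and dod-24 at -0.51 ± 0.70 (edgeR adjusted p = 0.636).

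**Figure D3:**
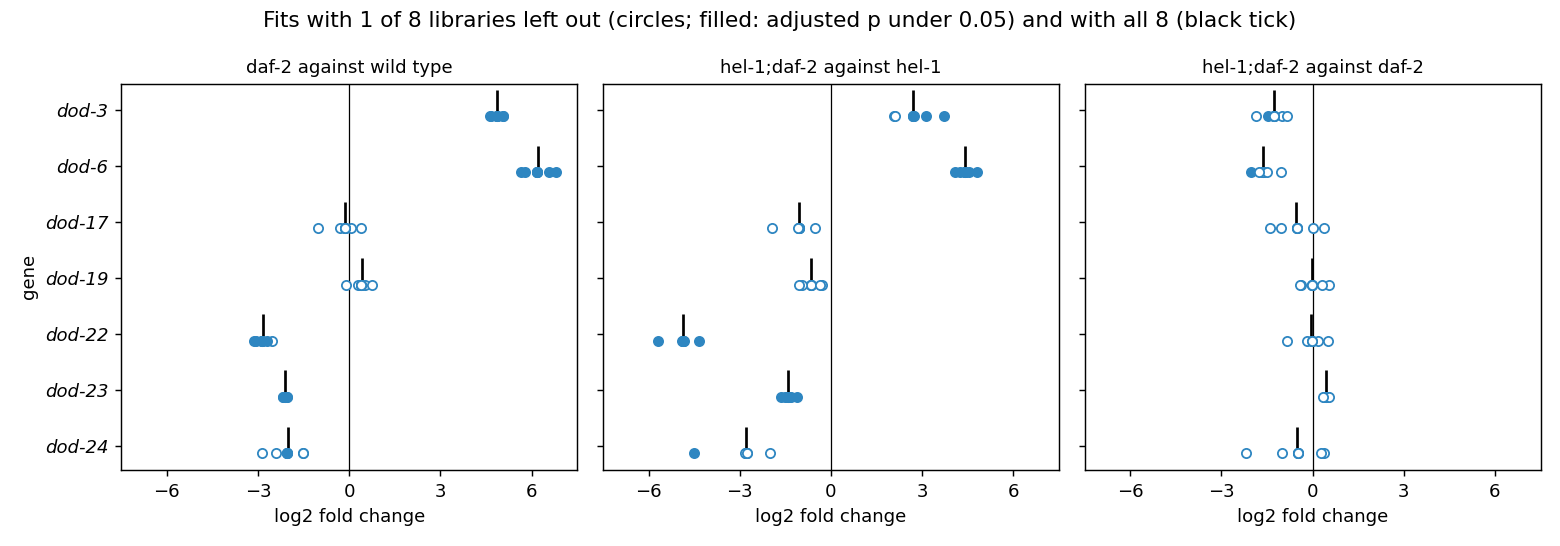
Log2 fold changes (x axis) of the 7 tested dod genes (y axis) in 3 comparisons when 1 of the 8 libraries was left out (circles, filled where the adjusted p was under 0.05 with edgeR) and with all 8 libraries (black ticks). All circles of dod-6 and dod-23 are filled in the first 2 panels, and in the third panel 1 circle each of dod-3 and dod-6 is filled, the fits without daf-2 replicate 1.

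The interaction, the hel-1 difference in the daf-2 background minus that in the wild-type background, tests whether the mutations combine additively on the log2 scale. No dod gene passed with edgeR, where 0.823% of all tested genes passed with adjustment. DESeq2 called 1, dod-23, where 5% of the genes it tested passed. With edgeR 4 dod genes had an unadjusted p under 0.05, against 27.7% of all tested genes. The values were -2.17 ± 0.72 for dod-3 (edgeR adjusted p = 0.137), -1.80 ± 0.64 for dod-6 (edgeR adjusted p = 0.148), -2.02 ± 0.72 for dod-22 (edgeR adjusted p = 0.148) and 0.71 ± 0.24 for dod-23 (edgeR adjusted p = 0.137). Those of dod-17 (-0.94 ± 0.75, edgeR adjusted p = 0.37), dod-19 (-1.07 ± 0.49, edgeR adjusted p = 0.194) and dod-24 (-0.77 ± 0.94, edgeR adjusted p = 0.553) had an unadjusted p above that. Scaling to library totals only moved the median of all tested genes from -0.09 to -0.25. Without daf-2 replicate 1, dod-3 (-2.34, edgeR adjusted p = 0.041), dod-6 (-2.16, edgeR adjusted p = 0.00747) and dod-19 (-1.41, edgeR adjusted p = 0.0267) passed, 3 of 7 dod genes in a fit where 45.8% of all tested genes passed.

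The stretch of chromosome IV with dod-21, dod-24, dod-22 and dod-17 spans 41.6 kb and holds 19 annotated genes, 13 of them protein coding. Counts were found for 14 of them and 6 were tested. Neighbours there did not share a direction in daf-2 mutants. F55G11.4, a CUB-like gene 700 bases from dod-17 on the same strand, had 3.49 and 2.89 CPM in wild type and 8.39 and 47.3 CPM in daf-2, and rose (3.13 ± 0.71, edgeR adjusted p = 0.0258), with its high value in the library with raised muscle and pharynx markers. Without that library its value was 1.41 (edgeR adjusted p = 0.0317), and the call was lost without wild-type replicate 1 (edgeR adjusted p = 0.116) or 2 (edgeR adjusted p = 0.161). F55G11.2, a CUB-like gene 53 bases from dod-22 on the other strand, stood at -2.97 ± 0.93 (edgeR adjusted p = 0.0589) and passed without hel-1;daf-2 replicate 1 (edgeR adjusted p = 0.0216) or 2 (edgeR adjusted p = 0.0224). F55G11.8, also CUB-like and 729 bases from dod-22 on its other side, stood at 0.21 (edgeR adjusted p = 0.691). Between hel-1;daf-2 and hel-1, dod-22 was the 1 gene of the 6 tested in the stretch that passed, and F55G11.4 passed as well without daf-2 replicate 1 (edgeR adjusted p = 0.0132) or 2 (edgeR adjusted p = 0.0171).

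**Figure D4:**
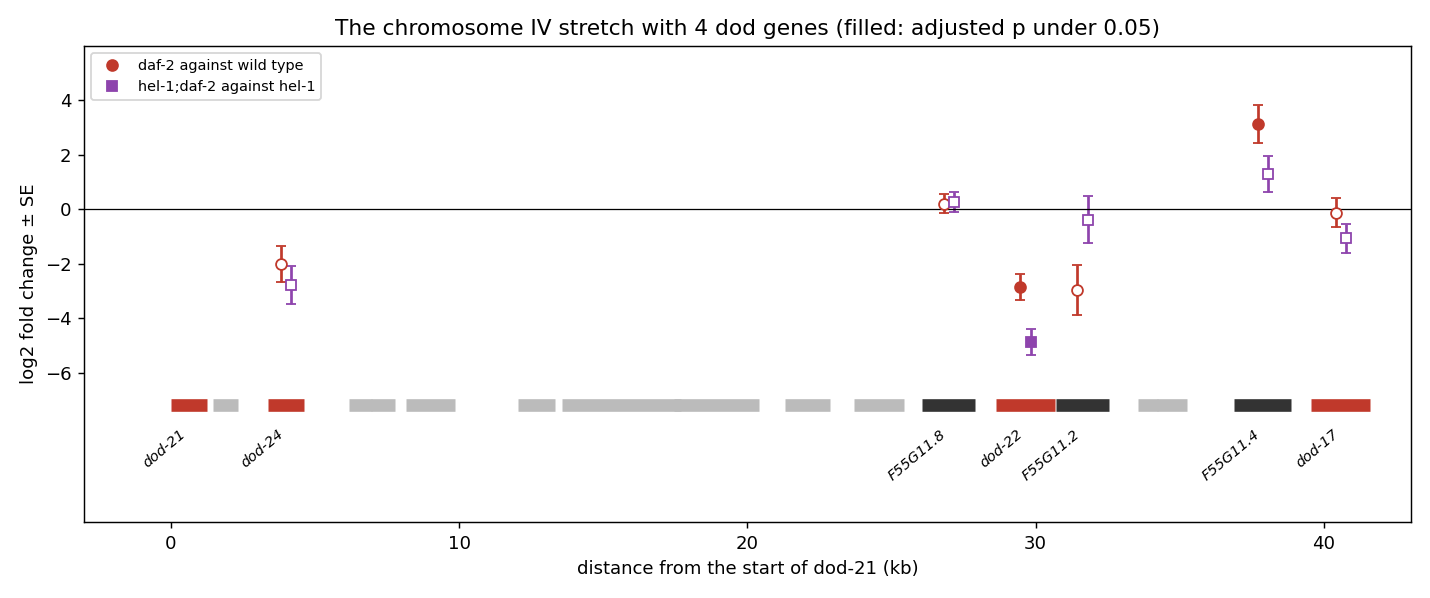
Log2 fold changes with bars of 1 SE (y axis) along the chromosome IV stretch (x axis, distance from the start of dod-21 in kb) for daf-2 against wild type (circles) and hel-1;daf-2 against hel-1 (squares), filled where the adjusted p was under 0.05 with edgeR. Boxes mark gene bodies, red for dod genes, black for other tested genes and grey for genes not tested. The circle of dod-22 lies at -2.85 and that of F55G11.4 at 3.13, and both are filled.

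Elsewhere, the nearest tested gene right of dod-6, T20G5.8, lies 1000 bases away on the same strand and rose in daf-2 (3.68 ± 0.77, edgeR adjusted p = 0.0212). The nearest on its left, mua-3, rose as well (1.01, edgeR adjusted p = 0.0336). The T20G5.8 value was 2.02 without daf-2 replicate 2 (edgeR adjusted p = 0.0383), and its call was lost without wild-type replicate 1 (edgeR adjusted p = 0.105) or 2 (edgeR adjusted p = 0.145). The call of mua-3 was lost in 7 of 8 fits with a library left out, all but that without daf-2 replicate 1. skpo-1, a peroxidase gene 1135 bases from dod-23 on the same strand, fell (-0.53 ± 0.09, edgeR adjusted p = 0.0101), a call lost without wild-type replicate 2 (edgeR adjusted p = 0.104). irg-8, 1111 bases from dod-19 on the same strand, did not pass in daf-2 (-0.21, edgeR adjusted p = 0.314) and fell in hel-1;daf-2 against hel-1 (-1.60, edgeR adjusted p = 0.00178). The nearest tested genes of dod-3, C24B9.3 and dhs-14, did not pass in either comparison, nor did scl-27 beside dod-19 or F49E12.8 beside dod-23. K10D11.3 beside dod-17, scarce at 0.252 CPM, did not pass with all 8 libraries. It passed in daf-2 without daf-2 replicate 1 (2.88) and stood at -0.31 without replicate 2. Between hel-1;daf-2 and hel-1, mua-3 (-0.68) and skpo-1 (-0.31) did not pass with all 8 libraries. Both passed without either daf-2 library.

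The other genes of the pathway were read from fixed lists, which, like the dod genes, were chosen with earlier results of these data known. The share of all tested genes that passed differed widely between fits with a library left out. List counts of such fits are thus not comparable with each other. Of 30 genes known to be activated through DAF-16, 27 were tested, and 22 rose and none fell in daf-2 with edgeR (24 had an unadjusted p under 0.05). DESeq2 called 22 of the list higher and none lower. Of the 12391 genes it tested in this comparison it called 1487 higher and 1444 lower. With edgeR the median log2 fold change of the 27 was 2.02, against 0.10 over all tested genes, of which 12.1% rose and 7.21% fell. With a library left out the median of the 27 lay between 1.68 (without daf-2 replicate 2) and 2.12 (without daf-2 replicate 1). Over all tested genes the median in those fits was 0.02 and 0.17. Fewer of the 27 passed without either wild-type library, where fewer of all tested genes passed too. sod-3, a mitochondrial superoxide dismutase gene and a standard reporter of DAF-16 activity, rose by 4.17 ± 0.20 (edgeR adjusted p = 6.89e-05), and ftn-1, a ferritin gene, rose by 6.72 ± 0.65 (edgeR adjusted p = 0.00136). The fatty acid desaturase gene fat-5 rose by 1.94 ± 0.17 (edgeR adjusted p = 0.000887) and the acid sphingomyelinase gene asm-2 by 2.03 ± 0.19 (edgeR adjusted p = 0.00127). Antisense genes overlap exons of sod-3 and fat-5, and counts made without strand would not separate them. dod-6 and dod-3 thus had log2 fold changes between those of sod-3 and ftn-1, and above those of fat-5 and asm-2 and the list median.

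In hel-1 against wild type, where 0.415% of all tested genes passed, 1 of the 27 rose, fat-5 (2.26, edgeR adjusted p = 0.00195). When hel-1;daf-2 was set against hel-1, 2.96% of all tested genes rose and 2.65% fell, with a median of -0.01. Of these 27 genes 7 rose and 1, fat-5, fell (-0.84, edgeR adjusted p = 0.0264), with a median of 1.04. With a library left out 4 to 14 rose, 4 without hel-1 replicate 1 and 14 without either daf-2 library, and none fell without hel-1 replicate 2 or either hel-1;daf-2 library. When hel-1;daf-2 was set against the daf-2 single mutant none of the 27 passed with edgeR and 11 had an unadjusted p under 0.05. DESeq2 called 6 lower, where of the 11859 genes it tested it called 243 lower and 13 higher. Without daf-2 replicate 1, where 39.9% of all tested genes passed, 16 fell and 1 rose. With all 8 libraries the median of the 27 genes was -0.63, against -0.02 over all tested genes, of which 16.8% had an unadjusted p under 0.05. In that fit of all 8 libraries dod-3 stood at -1.28 and dod-6 at -1.64.

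Of 12 other genes known to be lower with active DAF-16, 10 were tested. In daf-2 mutants 4 fell and 2 rose, where 7.21% of all tested genes fell and 12.1% rose. The median of the 10 was -0.32, against 0.10 over all tested genes. Both counts changed when a library was left out. The count that rose changed even without either hel-1;daf-2 library, although that genotype is not part of this comparison. Whether single libraries carried the counts thus cannot be told. With a library left out the median lay between -0.55 (without daf-2 replicate 1) and -0.31 (without daf-2 replicate 2). acdh-2, an acyl-CoA dehydrogenase gene, fell by 3.47 on the log2 scale with an SE of 0.18 (edgeR adjusted p = 9.67e-05), and it shares 87 exon bases with ins-13 on the same strand, so their counts cannot be split here. ilys-5, an invertebrate lysozyme gene, had 578 and 568 CPM in wild type and 44.7 and 21.8 CPM in daf-2 (-4.11 ± 0.49, edgeR adjusted p = 0.00297). pept-1, the intestinal peptide transporter gene, stood at -0.62 ± 0.09 (edgeR adjusted p = 0.00741) and clec-186, a C-type lectin gene, at -0.55 ± 0.13 (edgeR adjusted p = 0.0301). Between hel-1;daf-2 and hel-1, 3 of the 10 fell and none rose with edgeR or DESeq2 (1 fell without either wild-type library, either hel-1 library or hel-1;daf-2 replicate 2, and 2 without hel-1;daf-2 replicate 1), among them acdh-2 (-4.07, edgeR adjusted p = 5.08e-05) and ilys-5 (-2.23, edgeR adjusted p = 0.032).

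CUB-like genes outside the dod genes were read in the same way. Of 21 names listed 15 were in the annotation and 14 were tested: 3 rose and none fell in daf-2 with edgeR, where 12.1% of all tested genes rose and 7.21% fell, 9 had an unadjusted p under 0.05, and DESeq2 called 5 higher and 1 lower. No gene of the list rose without either wild-type library, 1 without daf-2 replicate 2 and 6 without daf-2 replicate 1, and 1 fell without either hel-1;daf-2 library. The median log2 fold change was 0.50, against 0.10 over all tested genes. Those that rose were F55G11.4, K08D8.5 (0.90 ± 0.20, edgeR adjusted p = 0.023) and F35E12.10 (0.67 ± 0.14, edgeR adjusted p = 0.0203). Between hel-1;daf-2 and hel-1, 2.65% of all tested genes fell and 2.96% rose. Of the list 2 fell and none rose with edgeR or DESeq2, irg-5 (-3.51, edgeR adjusted p = 0.0188) and F35E12.9 (-1.32, edgeR adjusted p = 0.0488). With a library left out 0 to 2 fell, none without either hel-1 library or hel-1;daf-2 replicate 1, and 1 without either wild-type library or hel-1;daf-2 replicate 2. Family members may share sequence, and the part of shared reads in these counts was not tested. The expected counts of the dod genes were whole numbers as written in 64 of 64 values. Over all genes only 2.03% to 2.79% of the values in a library were not whole, so this sets the dod genes little apart.

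Of 25 genes that act in or on DAF-16 signaling, all tested, 5 rose and 1 fell in daf-2 with edgeR, near the 12.1% and 7.21% of all tested genes, with a median of 0.02. DESeq2 called 4 higher and 5 lower, and with a library left out edgeR called 0 to 6 higher and 0 to 7 lower, with 0 in both directions without either wild-type library and the most without daf-2 replicate 1. Those with the smallest p were prmt-1, an arginine methyltransferase gene (-0.78 ± 0.15, edgeR adjusted p = 0.0157), ftt-2, a 14-3-3 gene (0.36 ± 0.07, edgeR adjusted p = 0.0177), ist-1 (0.97 ± 0.20, edgeR adjusted p = 0.0209) and akt-2 (0.96 ± 0.21, edgeR adjusted p = 0.023). Between the double mutant and daf-2 none of the 25 passed with edgeR or DESeq2, and 0 had an unadjusted p under 0.05. Most of the 25 passed without daf-2 replicate 1, mainly as higher. That fit had 1 daf-2 library and, as given above, a large share of all tested genes passed in it. The median of the 25 was 0.14 in that fit, against -0.06 over all tested genes. With all 8 libraries these medians were 0.05 and -0.02.

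Across the 8 libraries, on the scale of log2 of CPM plus 1, dod-3 and dod-6 had a Pearson r of 0.977 with each other, and dod-6 had an r of -0.959 with dod-23. In the CUB-like family dod-17 and dod-24 had an r of 0.866. The points are 4 genotypes of 2 libraries each, so these values can follow the genotype means, the replicate differences or both. For dod-17 and dod-24 replicate 2 was above replicate 1 by 1.13 and 1.24 in daf-2. In hel-1;daf-2 it was above by 1.00 and 1.97. By the same r, and among tested genes averaging 5 CPM or more, the 2 most like each dod gene were mtl-1, a metallothionein gene (0.987), and zip-1 (0.986) for dod-3, and F17B5.1 (0.996) and mtl-1 (0.990) for dod-6. They were ndub-11 (0.989) and ddo-3 (0.986) for dod-23, and R10F2.6 (0.992) and abt-4 (0.991) for dod-22. For dod-19 they were ZK105.1 (0.968) and far-6 (0.956), for dod-24 Y66D12A.24 and ztf-27 (both 0.954), and for dod-17 Y54G2A.45 (0.934) and nduf-5 (0.926).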

How the data were processed

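RNA of whole worms was measured by RNA-seq in 8 libraries. The deposited values are RSEM expected counts per gene, 1 file per library, per the file headers. Per the submitters' processing notes, the builds were ce11 and WBcel235 and the tools included RSEM 1.3.1, HTSeq, Bowtie, TopHat2, cutadapt and FastQC. The aligner behind the counts and the use of strand are not given in the sources used here.

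Estimated counts were rounded, filtered with filterByExpr and compared by quasi-likelihood tests in edgeR 4.0.16 (R 4.3.3) after TMM scaling, in 1 fit of 4 genotype means over 8 libraries (4 residual degrees of freedom, common biological coefficient of variation 0.168). SE is the absolute log2 fold change over the root of the test's F. The alternatives were DESeq2 1.42.0, other scalings, no filter, a replicate block, fits of the compared genotypes alone and leaving out each library, which for the lists and neighbouring genes was added after seeing the data. Each fit with a library left out was filtered, scaled and adjusted anew. Replicates were treated as separate samples, since the labels call them independent repeats. The procedure was tested on simulated data.

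The dod genes and the lists were chosen with earlier results of these data known. Named beside them are hel-1, daf-2 and daf-16, the 2 most similar genes and the nearest tested neighbours of each dod gene, and at most 4 genes of each list by smallest adjusted p in daf-2. Further list genes, such as irg-5, F35E12.9 and F55G11.2 or irg-8 in hel-1;daf-2, were named after their values were seen. Searches for DAF-16 motifs in promoters were not run here.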

Additional observations from a re-analysis of the deposited data

How the results depend on the processing

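Over all alternatives, 510 values of single dod genes kept their direction and side of the threshold, 34 passed only under the alternative, 11 no longer passed and 25 turned their sign. The count of 0 dod genes in hel-1 against wild type became 1 with DESeq2 (2.12% of all tested genes called), 2 with no filter (1.81%), 1 with only the compared genotypes (1.64%), and 0 to 1 with a library left out (up to 3.46%). The count of 0 between the double mutant and daf-2 became 2 with no filter (3.05%) and 0 to 2 with a library left out (39.9% without daf-2 replicate 1). The count of 4 in hel-1;daf-2 against wild type (4.26%) became 5 with no filter (5.42%) or the replicate block (4.69%). It changed with a library left out through dod-3, dod-22 and dod-24. The count of 0 in the interaction became 1 with DESeq2 (41 genes higher and 578 lower), 3 with no filter (74 and 1141) and 0 to 3 with a library left out (3523 and 3141 without daf-2 replicate 1).

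The values that turned their sign were near 0 or of unequal replicates, and none was a call. dod-17 in daf-2 was 0.078 with library totals and -1.02 to 0.39 with a library left out, and dod-19 was -0.12 to 0.76. In hel-1 against wild type, with a library left out, dod-3 was -0.12 to 1.502, dod-6 -0.25 to 0.78 and dod-24 -0.12 to 0.75. Between the double mutant and daf-2, dod-19 was 0.036 with DESeq2 size factors, 0.041 with DESeq2, 0.0029 with no filter, 0.0045 with the replicate block and -0.40 to 0.53 with a library left out. There dod-22 was 0.0084 with DESeq2 size factors, 0.012 with DESeq2 and -0.83 to 0.50 with a library left out, dod-17 -1.39 to 0.39 and dod-24 -2.20 to 0.38. In hel-1;daf-2 against wild type dod-19 was -0.0055 to 0.70, and in the interaction dod-24 was -2.45 to 0.10. The causes were not tested.

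Over all tested genes, daf-2 against wild type gave 225 higher and 72 lower without wild-type replicate 2, and 3684 and 3479 without daf-2 replicate 1.

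Between genotypes, the correlations over genes of deviations from genotype means were -0.48 to 0.23. They rest on a single replicate difference per genotype, so they cannot decide whether replicate numbers pair the libraries. With the replicate block 5 dod genes passed in daf-2 against wild type, where 17.3% of all tested genes passed. The count was also 5 for the double mutant against wild type (4.69%) and against hel-1 (4.89%), and 0 in the others. dod-24 was the added gene, at -2.104 in daf-2 against wild type (edgeR adjusted p = 0.0261), -2.70 in the double mutant against wild type (edgeR adjusted p = 0.0253) and -3.09 against hel-1 (edgeR adjusted p = 0.0164). No fit of compared genotypes alone exists for the interaction, and dod-22 was not tested in that fit of the double mutant and daf-2. Counts under 10 per library limit dod-21 throughout and dod-22 in the daf-2 genotypes.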

Other observations

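In daf-2 and in hel-1;daf-2 replicate 2 was the higher for 7 of 7 tested dod genes, where it was the higher for 52.5% and 50.3% of all tested genes, and in wild type and hel-1 it was the higher for 5 of 7. By size of the replicate difference on the scale of log2 of CPM plus 1, dod-24 in hel-1;daf-2 was at rank 5 of 13722 genes (1.97), dod-17 at rank 33, dod-3 at rank 44 and dod-19 at rank 108. In hel-1, dod-3 was at rank 17 (1.21). The hel-1;daf-2 replicates otherwise had the smallest spread of the 4 genotypes, with a standard deviation of 0.183, and their summed markers of pharynx (52.1 and 53.9 CPM) and body wall muscle (852 and 865 CPM) were close together.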
